A study of Mus musculus with 8 samples.

Results

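CHD4 occupancy was described at the 10 mouse genes that encode core subunits of the NuRD complex: Chd4, Chd3, Mta1, Mta2, Mta3, Hdac1, Hdac2, Gatad2a, Gatad2b and Mbd3. Peaks of the 4 deposited CHD4 ChIP-seq lists were merged into sites wherever they overlapped by at least 1 bp. A site belonged to a gene when it overlapped the gene body plus 10 kb on each side. This gave 95 sites out of 121267 in all. With 5 kb in place of 10 kb the genes had 83 sites, and with 25 kb they had 146.

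The study asked where CHD4 binds in the atria of mice with and without TBX5, a T-box transcription factor of atrial gene expression. Every animal was Tbx5 flox/flox and was injected at postnatal day 2, either with AAV9:Nppa-Cre, which carries Cre recombinase to delete the floxed Tbx5 (TBX5 KO, 2 libraries), or with AAV9:Nppa-EGFP, which carries a fluorescent protein (control, 2 libraries). Both vectors are named for Nppa, an atrial cardiomyocyte gene, while the ChIP used frozen right and left atria of mixed cell type, so cells outside that lineage can contribute to each library. The sources used here do not say at what age atria were taken or whether a replicate was a single animal or a pool, so the spread between replicates may be technical. The sample labels contradict each other: titles and library names give the groups used here, whereas the genotype and treatment fields of the same libraries give the opposite, and the treatment text calls the Cre animals a CHD4 knockout. Every direction below rests on the titles and would turn round if those fields were right. A weaker ChIP from fewer cells carrying CHD4 and one from less CHD4 per cell cannot be told apart in such tissue.

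NuRD joins nucleosome remodelling and histone deacetylation in a single complex. CHD4 or its paralog CHD3 supplies the ATP-dependent motor, HDAC1 and HDAC2 remove acetyl groups from histones, MTA proteins form the scaffold that holds the deacetylases, MBD3 or MBD2 is the MBD-domain subunit, and GATAD2A or GATAD2B bridges the MBD protein to the CHD motor. In heart muscle CHD4 is known to keep genes of other muscle types silent. The genes described here therefore encode the assayed protein itself and its partners, and a peak at them is occupancy of the gene by CHD4, not a level of its transcript or protein.

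CHD4 peaks overlapped the sequence just before every annotated start of these genes for which a promoter was listed. RefSeq promoters of GRCm38.p6, the assembly behind mm10, were matched for 7 of the 10 genes with 10 starts in all, and all 10 windows of 250 bases before a start overlapped a peak in each of the 4 libraries. The start itself was not always covered, since at Mta1 and at the downstream start of Gatad2b the TBX5 KO peaks over the window ended before it. Of all 32851 promoter windows in the table, 41.7% overlapped a site called in all 4 libraries. The windows below are shown because they carry the assayed factor's own gene (Chd4, chr6:125095731-125095980, plus strand), the weakest start site (Mta1, chr12:113098028-113098277, plus strand), the strongest start site (Mbd3, chr10:80399532-80399781, minus strand) and the pair of separate starts of Gatad2a, at the gene's upstream end (chr8:69996385-69996634, minus strand) and inside it (chr8:69974384-69974633, minus strand). Each runs 5′ to 3′ and ends just before the annotated start. Capitals mark matches on either strand to any of 4 motifs, which may share bases: the GC box GGGCGG, the T-box core GGTGTG, the GATA site AGATAA and the E-box CACGTG.
Chd4: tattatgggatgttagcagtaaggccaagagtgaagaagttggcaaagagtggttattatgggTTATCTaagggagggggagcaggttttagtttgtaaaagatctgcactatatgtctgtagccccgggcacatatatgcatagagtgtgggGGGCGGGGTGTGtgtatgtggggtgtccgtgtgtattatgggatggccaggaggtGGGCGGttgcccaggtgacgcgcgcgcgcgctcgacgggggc
Mta1: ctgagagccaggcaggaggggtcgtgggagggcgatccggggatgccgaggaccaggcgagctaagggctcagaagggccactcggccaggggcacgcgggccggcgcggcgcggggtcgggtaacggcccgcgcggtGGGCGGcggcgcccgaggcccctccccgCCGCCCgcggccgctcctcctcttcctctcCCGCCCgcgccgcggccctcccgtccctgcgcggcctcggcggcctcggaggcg
Mbd3: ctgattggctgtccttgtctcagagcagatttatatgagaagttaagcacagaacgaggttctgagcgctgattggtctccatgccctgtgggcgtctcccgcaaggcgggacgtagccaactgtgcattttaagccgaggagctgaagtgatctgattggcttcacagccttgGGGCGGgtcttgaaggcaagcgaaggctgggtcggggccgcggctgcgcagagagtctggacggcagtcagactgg
Gatad2a upstream start: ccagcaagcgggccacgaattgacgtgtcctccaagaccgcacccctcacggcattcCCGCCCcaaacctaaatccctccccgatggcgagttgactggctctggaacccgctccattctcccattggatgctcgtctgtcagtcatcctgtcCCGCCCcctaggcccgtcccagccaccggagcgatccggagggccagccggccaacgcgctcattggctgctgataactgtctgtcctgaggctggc
Gatad2a internal start: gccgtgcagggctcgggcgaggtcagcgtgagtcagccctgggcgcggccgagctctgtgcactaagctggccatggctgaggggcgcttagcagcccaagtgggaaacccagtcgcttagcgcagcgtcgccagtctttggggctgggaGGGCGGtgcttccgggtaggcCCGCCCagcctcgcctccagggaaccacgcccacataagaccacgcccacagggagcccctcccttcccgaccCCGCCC

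The GC box was present in all 10 windows, against 32.7% of all promoter windows and 59.5% of the 13692 windows overlapped by a site called in all 4 libraries. The 10 windows are not all separate, since both windows of Chd4 overlap and share a GC box. The windows shown held 12 (Chd4), 39 (Mta1), 14 (Mbd3), 18 (Gatad2a upstream) and 20 (Gatad2a internal) CG dinucleotides, against a median of 6 over all windows and 16 over windows under such a site. The Chd4 window shown, that of Mbd3 and both of Gatad2b (13 and 14) lie below that median of 16. The other window of Chd4 held 23. The T-box core was found in 1 of the 10 windows, that of Chd4 shown above, where it directly follows a GC box, and it was found in 16.3% of all windows. The GATA site was found in 2 of the 10 (9.99% of all) and the E-box in 0 of the 10 (6.02% of all). These are letter matches and no measure of binding by any factor.

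The 4 lists differed in length, and with it in what they can call. The TBX5 KO lists held 61173 and 69557 peaks and the control lists 99924 and 91520. The lists give no read totals, so depth is unknown. A site without a peak may hold CHD4 below the threshold of the list, which was a q of 0.05 in each. All 4 atrial cardiomyocyte markers examined (Nppa, Myl7, Myl4 and Sln) had a CHD4 site called in a control library, but occupancy does not measure their expression, so the tissue label was not checked by it.

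At the NuRD subunit genes most gene-end sites were called in both groups. Sites found in each control list but in no TBX5 KO list lay mostly inside the genes. They numbered 13 inside, 3 at gene ends and 4 in the 10 kb flanks. Over all protein-coding genes the counts were 10866, 1120 and 3833, so most lay inside there too. All 10 genes had at least 1 site within 1 kb of a gene end that was called in all 4 libraries, whereas 55.0% of the 21887 protein-coding genes had such a site. The genes had 56 and 55 peaks in the TBX5 KO libraries and 86 and 76 in the control libraries, so the groups did not overlap. The means were 55.5 ± 0.707 in TBX5 KO and 81.0 ± 7.07 in control (SD, n = 2 each), a ratio of 0.685, close to the ratio of 0.683 between the whole lists. A two-sided exact permutation test over the libraries gave p = 0.333. With 2 libraries in each group no smaller p can be reached, so none of these comparisons can pass a threshold of 0.05. When all lists were shortened to the 61173 peaks with the highest −log10 p, the mean was 52.5 peaks in TBX5 KO and 46.5 in control, a ratio of 1.13 (exact permutation p = 0.667).

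Both control lists held 60 of the member sites. Of these, 32 (53.3%) had a peak in every library, against 55.8% over the series and 57.2% at protein-coding genes. Another 20 were control-only, that is, called in both control lists and neither TBX5 KO list. These were 33.3% of the 60 (95% Wilson interval 22.7% to 45.9%, counting error only), against 24.9% over the series and 24.3% at protein-coding genes. From the control rank of the 60 sites, 17.2 control-only sites would be counted at the rate of all sites of the same decile, so the members were near that rate. In lists of equal length 3 of 37 member sites (8.11%) were control-only, against 14.8% of all sites. Without control replicate 2 the count was 42 of 85 (49.4%), against 40.6% of all sites. No member site was called in both TBX5 KO libraries and neither control library, 0 of 32 (95% Wilson interval up to 10.7%). Of all sites in both TBX5 KO libraries, 1.91% had that pattern. Single-library sites numbered 0 and 3 in the TBX5 KO libraries and 20 and 8 in the control libraries. They made up 0 of 39 and 3 of 40 member sites of the TBX5 KO libraries and 20 of 84 and 8 of 68 of the control libraries, against 7.66% and 10.2% of all sites in TBX5 KO and 21.9% and 15.8% in control.

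The share of control-only sites was lowest at gene ends and highest inside the genes, for members as for all genes. At gene ends 3 of 16 sites were control-only (18.8%, Wilson 6.59% to 43.0%), against 6.79% at the ends of all protein-coding genes. Inside the genes 13 of 26 were control-only (50%, 32.1% to 67.9%), against 30.9% inside all genes. In the 10 kb flanks 4 of 18 were control-only (22.2%, 9% to 45.2%), against 20.9%. These intervals cover counting error only, and the sites share genes and libraries, so no difference from all genes was tested. Sites with a peak in every library made up 13 of 16 at gene ends (81.2%, against 86.5% over all genes), 8 of 26 inside (30.8%, against 46.7%) and 11 of 18 in the flanks (61.1%, against 62.2%). Control rank went with place: the median control percentile was 92.9 for the gene-end sites, 37.8 for those inside and 55 for the flanks, and over all genes it was 88.1, 54.2 and 65.3. With rank decile and place both taken into account, 16.7 control-only sites would be counted among the 60 at the rate of all genes. In lists of equal length 0 of 13 gene-end sites were control-only, against 2.48% over all genes, and 3 of 12 internal sites (25%), against 19.1%. Without control replicate 2 the counts were 5 of 19 at gene ends (26.3%, against 15.5%) and 25 of 40 inside (62.5%, against 48.1%).

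**Figure D1:**
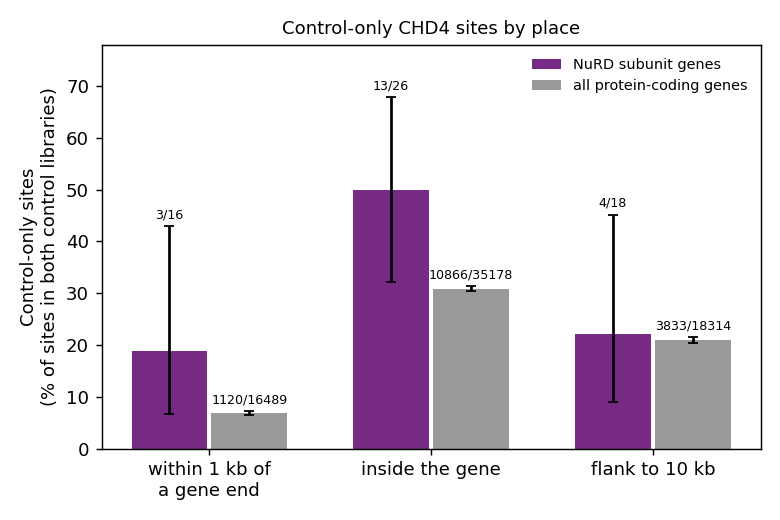
Bars give the percentage of sites called in both control libraries that were called in neither TBX5 KO library, by place, for the NuRD subunit genes (left of each pair) and for all protein-coding genes (right). Error bars are 95% Wilson intervals that cover counting error only, and the fractions give the counts; the NuRD subunit genes had 3 of 16 at gene ends, 13 of 26 inside and 4 of 18 in the flanks.

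**Figure D2:**
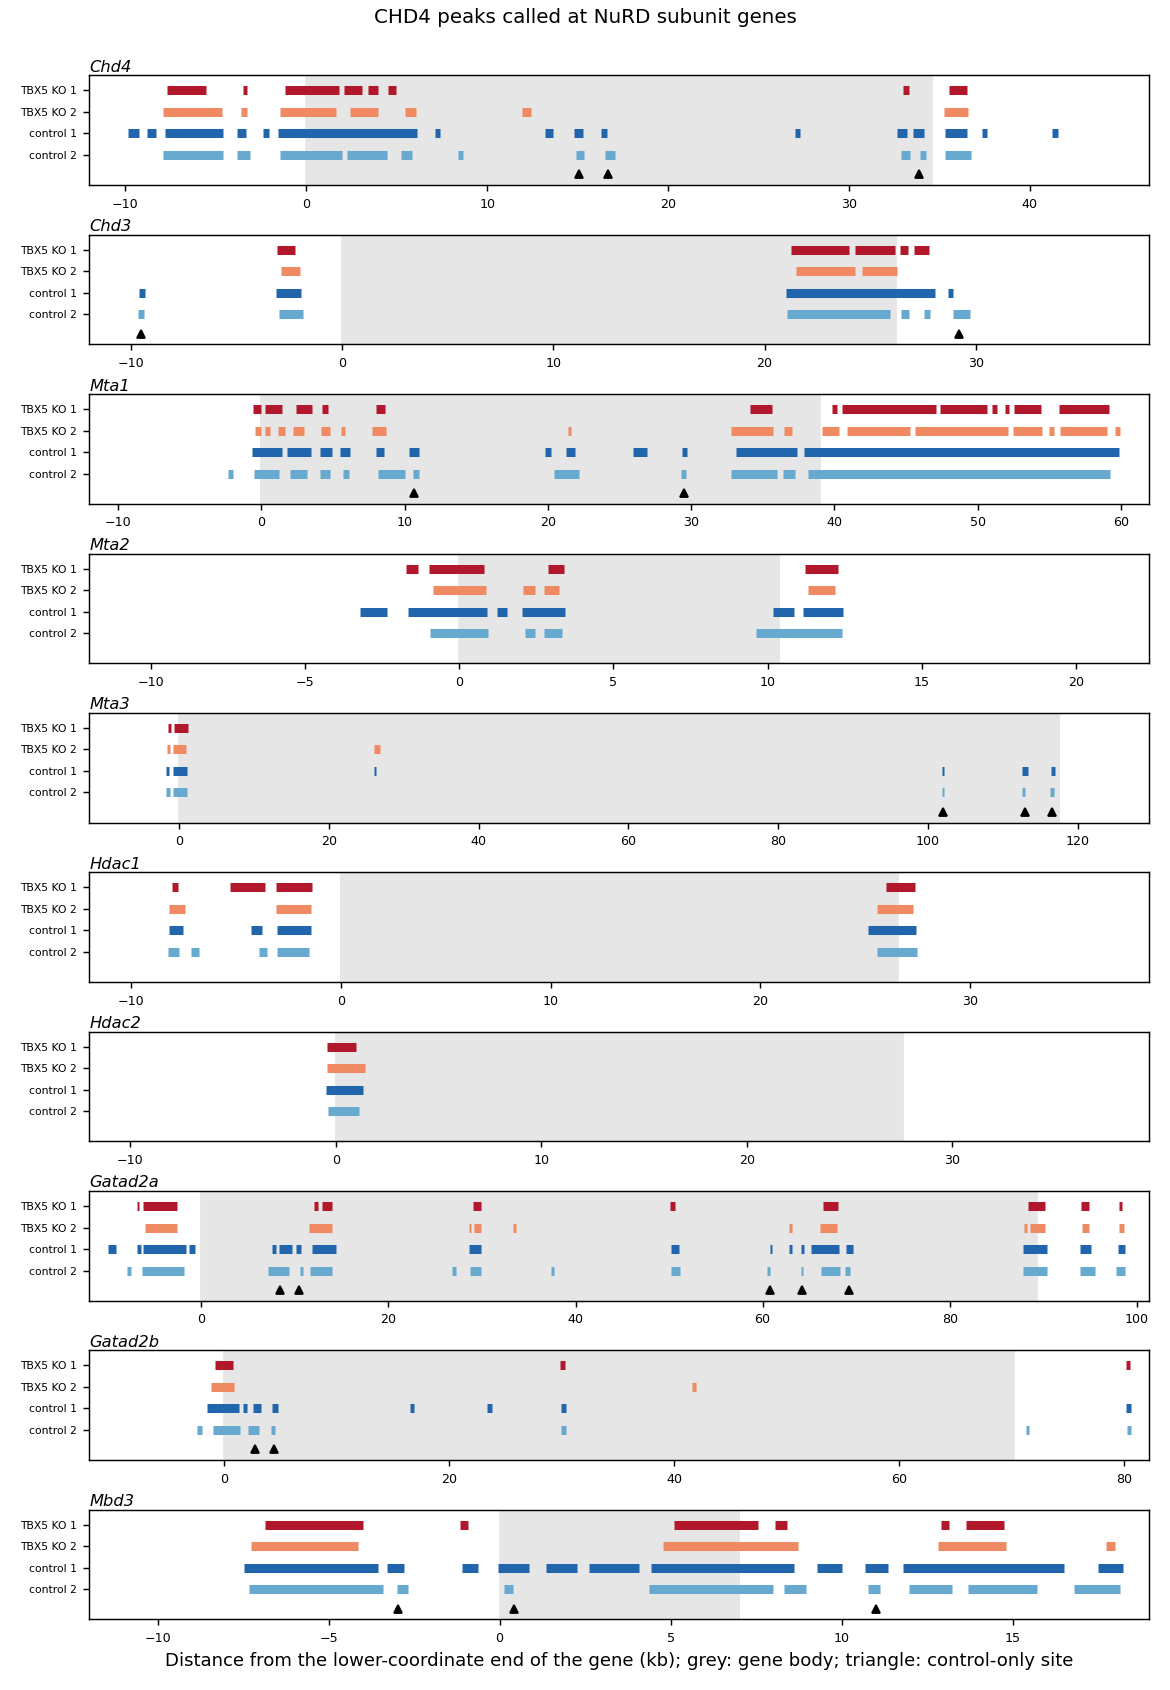
Each panel shows 1 NuRD subunit gene, with distance from its lower-coordinate end in kb on the x axis, its body in grey and the called CHD4 peaks as bars, the 2 TBX5 KO libraries above the 2 control libraries. Triangles mark the 20 control-only sites; each gene has a peak at a gene end in all 4 libraries, and 13 of the triangles lie inside a gene away from its ends.

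The control-only sites were narrow and low in the control lists. Their control percentile, the mean over both control lists of the percentile of −log10 p within the list, had a median of 24.5 (8.29 to 72.9), against 83.9 (38.0 to 99.9) for the 32 sites called in all 4 libraries. Over all sites of the series the medians were 36.8 and 77.6. The median width in control was 485.5 bp for the control-only member sites and 2022 bp for those called in all 4. Over all sites of the series these widths were 493.5 and 1198 bp. Of the 26 member sites in both control libraries with a control percentile under 50, 19 were control-only, where 49.7% of all such sites were. Of the 34 with a percentile of 50 or more, 1 was control-only, where 10.8% of all were. That site lay inside Gatad2a and is described with that gene.

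Chd4, on chromosome 6 (125095980 to 125130591), had 18 sites, of which 8 were in both control libraries, 4 in all 4 and 3 control-only. Its start site reached from the promoter shown above into the gene. It spanned 125094437 to 125102126 after merging and covered 5017 and 5287 bp in the TBX5 KO libraries against 7690 and 6211 bp in the control libraries. In control 1 it was a single peak, while it was called as 4 and 3 pieces in the TBX5 KO libraries and as 3 in control 2. Its strongest peak stood at percentiles 95 and 95.2 in the TBX5 KO lists and 97.0 and 94.0 in the control lists, so the groups overlapped. The summits lay at -65 and -32 bp from the annotated start in the TBX5 KO libraries and at -129 and -12 bp in the control libraries. A second strong site in all 4 libraries lay upstream, at 125088049 to 125091370, with 2110 and 3254 bp in TBX5 KO and 3222 and 3311 bp in control. The control-only sites lay inside the gene (125110767 to 125111359 and 125112297 to 125113029) and at its transcript end (125129536 to 125130234), with control percentiles of 24.3, 15.5 and 32.3. A further site just past the transcript end, 125131242 to 125132762, which overlaps the neighbouring Nop2, was called in all 4 libraries.

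Chd3, the paralog motor on chromosome 11 (69343273 to 69369499), had 4 sites, all in both control libraries. Its gene-end site, 69364296 to 69371358 at the higher-coordinate end, covered 5758 and 4427 bp in TBX5 KO and 7063 and 5486 bp in control. Its percentiles were 85.1 and 92.4 in TBX5 KO and 93.1 and 92.4 in control. The summits lay inside the gene, at -4.36 and -2.93 kb from that end in TBX5 KO and at -4.38 and -2.94 kb in control, and the TBX5 KO peaks behind these percentiles end inside the gene. The site was a single peak in control 1 and in no other library, with 4 and 2 peaks in TBX5 KO and 3 in control 2. No site lay inside the gene away from its ends. Of the 3 flanking sites, 2 were control-only, with control percentiles of 31.3 and 9.67.

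Among the scaffold genes, Mta1 on chromosome 12 (113098248 to 113137206) had 13 sites and carried the weakest start and the widest site of the set. Its start site, 113097590 to 113099894, stood at percentiles 66.6 and 67.4 in the TBX5 KO lists and 77.3 and 73.7 in the control lists, and it covered 1742 and 1226 bp in TBX5 KO against 2114 and 1766 bp in control. Both measures were lower in both TBX5 KO libraries. Inside the gene both control lists held 8 sites, of which 4 had a peak in every library and 2 were control-only (113108576 to 113109276 and 113127565 to 113127975), with control percentiles of 18.8 and 22.4. The strongest internal site, 113131004 to 113135659, stood at percentiles of 87.7 and 89.5 in TBX5 KO and 97.9 and 97.1 in control. Its folds over local background, as given by the authors' peak caller, were 5.10 and 5.23 in TBX5 KO and 13.6 and 8.28 in control. Median folds of the whole lists were 2.82 and 2.70 in TBX5 KO and 3.06 and 3.02 in control. Depth is unknown, and folds were not tested between libraries.

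From the transcript end of Mta1 a CHD4 domain ran over its neighbours. The merged site, 113136155 to 113158141, is 21987 bp wide and overlaps Crip2, Gm30599, Crip1 and Tedc1. Crip1 and Crip2 encode LIM domain proteins. It was 1 peak in each control library (21976 and 21066 bp) and 7 peaks in each TBX5 KO library, which together covered 16174 and 18061 bp. Its percentiles were 98.6 and 99.9 in TBX5 KO and 99.4 and 99.8 in control. The summits in all 4 libraries lay 19.0 to 19.1 kb past the end of Mta1, so its strongest part is not at Mta1 itself. The TBX5 KO peaks of the domain within 1 kb of the end of Mta1 stood at percentiles of 24.4 and 65.6. Neither of them overlapped the gene.

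Mta2 on chromosome 19 (8941920 to 8952300) had 5 sites, of which 3 were in both control libraries and all 3 of these in all 4 libraries. Its start site, 8940181 to 8942870, also overlaps Eml3 and had percentiles of 92.9 and 91.9 in TBX5 KO and 95 and 91.3 in control. At its transcript end the site 8951536 to 8954360, shared with Tut1, covered 1058 and 862 bp in TBX5 KO and 1990 and 2799 bp in control. Its ratio of mean widths of 0.401 was the lowest among the 32 member sites called in all 4 libraries. The TBX5 KO peaks of this site began past the end of Mta2, at 8953143 and 8953241. The summits in all 4 libraries lay 1.375 to 1.651 kb past that end. Mta3 on chromosome 17 (83706163 to 83823715) had 6 sites, of which 5 were in both control lists, 2 in all 4 libraries and 3 control-only. Its site at the lower-coordinate end, 83705313 to 83707293, was nearly as wide in TBX5 KO (1844 and 1684 bp) as in control (1851 and 1885 bp), with percentiles of 83 and 84.1 against 81.1 and 81.9. The 3 control-only sites of Mta3 clustered toward its other end, between 83808036 and 83823074, with control percentiles of 24.7, 42.5 and 22.0.

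The deacetylase genes had few sites, and none lay inside a gene away from its ends. In both control lists Hdac1 had 4 sites and Hdac2 had 1, and 0 of these were control-only. At the rate of all sites of the same decile, 1.12 control-only sites would be counted at Hdac1 and 0.0204 at Hdac2. Hdac2 on chromosome 10 (36974297 to 37001889) had 1 site, at its start (36973829 to 36975729), which covered 1440 and 1879 bp in TBX5 KO and 1773 and 1506 bp in control. Its percentiles were 72.3 and 89.8 in TBX5 KO and 90.6 and 81.4 in control, so replicates within a group differed by more than the groups did. Hdac1 on chromosome 4 (129516104 to 129542646) had 5 sites, 1 at its higher-coordinate end and 4 in the flank beyond its other end, toward Marcksl1. The gene-end site, 129541242 to 129543577, was among the strongest of each list, at percentiles of 99.8 and 99.2 in TBX5 KO and 99.1 and 98.0 in control. It covered 1423 and 1692 bp in TBX5 KO and 2280 and 1926 bp in control. A flanking site at 129507869 to 129508662 stood at percentiles 60.7 and 54.5 in TBX5 KO and 39.8 and 38.8 in control.

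Gatad2a and Gatad2b, the genes of the bridging subunits, held 12 of the 26 internal member sites in both control lists. Of these 12, 7 were control-only, against 13 of the 26, which include them, and 30.9% inside all genes. From control decile alone, 3.43 control-only sites would be counted at Gatad2a and 1.52 at Gatad2b, where 5 and 2 were found. No difference from these rates was tested. Gatad2a on chromosome 8 (69907069 to 69996402) had the most sites of any member, 21, with 13 in both control libraries, 7 in all 4 and 5 control-only, and all 5 lay inside the gene. Its upstream start site, 69994896 to 69997427, had percentiles of 96.9 and 99.3 in TBX5 KO and 99.8 and 99.2 in control. The internal start shown above lay under a strong site of its own, 69972280 to 69975383, with percentiles of 96.1 and 96.3 in TBX5 KO and 95 and 95.6 in control. The summits of that site lay at -49 and 1 bp from the internal start in TBX5 KO and at -55 and 6 bp in control. By the gene-end rule this site counts as inside the gene, so an internal site called in all 4 libraries can be a promoter. The control-only site with the highest control rank of all members, 69914230 to 69916707, covered 0 bp in both TBX5 KO libraries and 1766 and 2151 bp in the control libraries, with control percentiles of 79.8 and 66.1. It remained control-only in lists of equal length. The other 4 control-only sites of Gatad2a (from 69917148, 69967570, 69971125 and 69975921) were at most 677 bp wide in either control library and had control percentiles of 8.29 to 24.9. Near the transcript end a 606 bp peak at 69905760 to 69906365 was called in control 1 alone. The widest site of Gatad2a, 69900761 to 69905440 in the flank beyond that end, had its summit in Tssk6 in all 4 libraries and covered 3678 and 3423 bp in TBX5 KO and 4594 and 4491 bp in control. A neighbouring internal site, 69918576 to 69921493, was called in all 4 libraries, with 1552 and 2412 bp in TBX5 KO and 2598 and 2404 bp in control.

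Gatad2b on chromosome 3 (90293181 to 90363405) had 11 sites and only its start site in all 4 libraries. That site, 90291687 to 90294559, covered 1666 and 1999 bp in TBX5 KO and 2800 and 2378 bp in control, with percentiles of 95.3 and 97.7 against 99.0 and 98.9. Both its width and its percentile were lower in both TBX5 KO libraries. The control-only sites followed it closely, at 90295307 to 90296484 and 90297315 to 90297973, with control percentiles of 37.6 and 25.7. The covered bases at Gatad2b averaged 2442 in TBX5 KO and 5725 in control, and the ratio of 0.427 was the lowest of the 10 genes.

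Mbd3, the short gene on chromosome 10 (80392539 to 80399531) that encodes the MBD subunit, carried the site with the highest control percentile of the set. Its start site, 80396917 to 80401510, ranked 39 and 279 in the TBX5 KO lists and 51 and 203 in the control lists. The Mta1 domain ranked higher in TBX5 KO 2 (92) and in control 2 (157). The summits lay at -124 and -126 bp from the annotated start in TBX5 KO and at -117 and -121 bp in control, within the promoter shown above. The site covered 2804 and 3951 bp in TBX5 KO and 4184 and 4271 bp in control. The rest of the gene body had no peak in either TBX5 KO library, and it had 3 in control 1 and 1 in control 2, of which 1 site (80392492 to 80393404, at the transcript end) was control-only. The other control-only sites of Mbd3 lay in its flanks, at 80389238 to 80389870 and 80403211 to 80403891, with control percentiles of 24.8 and 21.5. A further gene-end site, 80391380 to 80391904, was called in TBX5 KO 1 (236 bp) and control 1 (479 bp). The flank toward Uqcr11 and Tcf3 had a site, 80404337 to 80409046, that covered 1339 and 1981 bp in TBX5 KO and 4710 and 3263 bp in control.

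Sites that kept their call covered fewer bases in TBX5 KO at most members. The median width of the 32 member sites called in all 4 libraries was 1496 and 1688 bp in TBX5 KO and 2052 and 1894.5 bp in control (means 1592 ± 136 and 1973 ± 111 bp, SD, n = 2 each; ratio 0.807; two-sided exact permutation test p = 0.333). Of these sites 21 were narrower in both TBX5 KO libraries than in both control libraries, 0 were wider in both, and 57.3% of all sites called in all 4 were narrower in this sense. The median ratio of mean widths was 0.759 over member sites and 0.747 over all sites. Summed over whole genes, 8 of the 10 members had fewer covered bases in both TBX5 KO libraries than in both control libraries, and 74.9% of all genes with peaks in both control libraries did. The exceptions were Hdac1, with a ratio of 0.937, and Hdac2, with 1.01. The median ratio was 0.645 over members and 0.650 over all 15459 such genes. The covered bases of all members summed to 70805 and 78241 bp in TBX5 KO and 127864 and 110597 bp in control, a ratio of 0.625, or 0.588 without the Mta1 domain. The whole lists covered 47.6 and 57.5 Mb in TBX5 KO and 97.0 and 86.7 Mb in control, a ratio of 0.572.

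**Figure D3:**
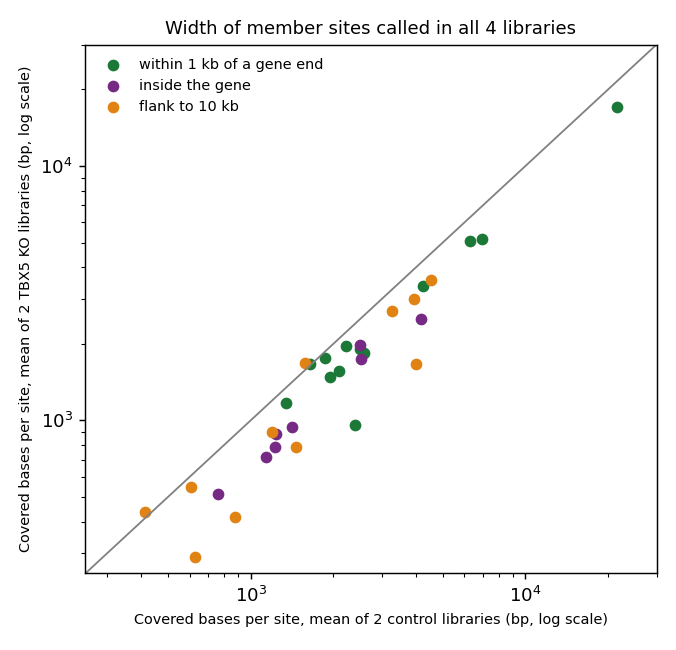
Each point is 1 of the 32 member sites called in all 4 libraries, with the mean covered bases of the 2 control libraries on the x axis and of the 2 TBX5 KO libraries on the y axis, both on log scales, coloured by place. The line marks equal width; 29 points lie below it.

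The wide gene-end sites were called as more pieces in TBX5 KO. The 13 gene-end member sites called in all 4 libraries held 28 and 25 peaks in TBX5 KO and 14 and 18 in control (6 and 5 sites with more than 1 peak in TBX5 KO, 1 and 3 in control). Without the Mta1 domain they held 21 and 18 peaks in TBX5 KO and 13 and 17 in control. Over all genes, 23.8% and 22.4% of gene-end sites called in all 4 had more than 1 peak in the TBX5 KO libraries, and 13.5% and 18.2% in the control libraries.

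Mean percentiles over the leading sites of the genes overlapped between the groups. The leading site is by definition that with the highest control percentile, so its values are a description with no test. It was called in all 4 libraries at all 10 members, as at 91.6% of all genes with a site in both control libraries. The mean percentile over the 10 leading sites was 91.9 and 94.9 in TBX5 KO and 95.4 and 93.7 in control, a difference of -1.14 percentile points (TBX5 KO minus control). Percentiles come from lists of different lengths and cannot show a change by themselves, and in lists of equal length the difference was 1.54 percentile points. Without TBX5 KO replicate 1 it was 0.366, and without the Mta1 domain, where another site of Mta1 leads, it was -2. Of the 32 member sites called in all 4 libraries, 14 had lower percentiles in both TBX5 KO libraries (46.5% of all such sites) and 4 had higher ones in both (6.39% of all). The 4 were the Mta3 gene-end site, the Hdac1 gene-end site and its flanking site given above, and the internal start site of Gatad2a.

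**Figure D4:**
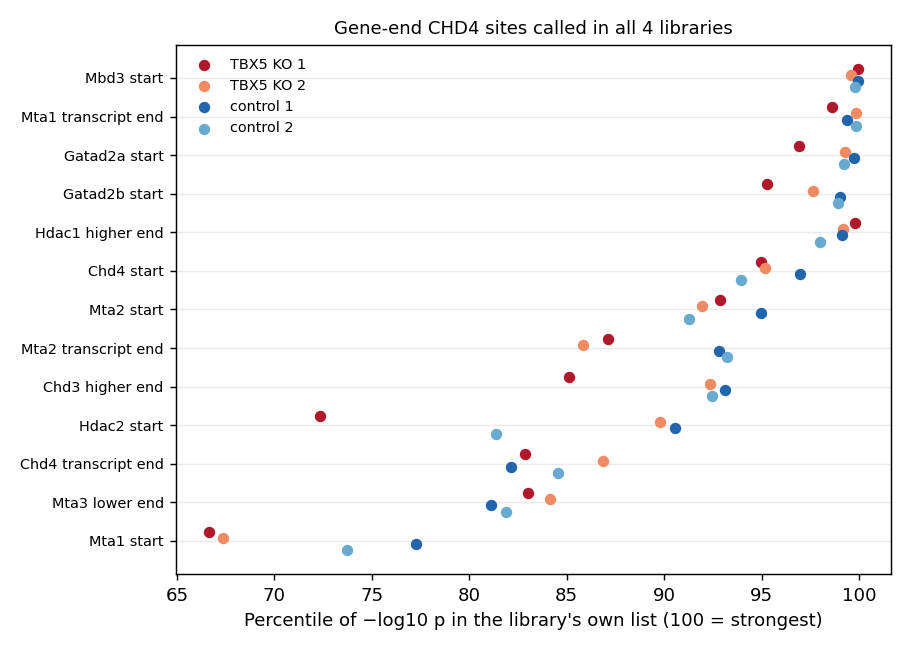
Percentile of −log10 p within each library's own list (x axis, 100 is the strongest peak) for the 13 gene-end member sites called in all 4 libraries, ordered by control percentile, with 1 point per library. The Mbd3 and Gatad2a starts, the site labelled Mta1 transcript end and the Hdac1 site lie above 96 in all 4 libraries. The values labelled Mta1 transcript end are those of peaks with summits 19.0 to 19.1 kb past the end of Mta1. Those labelled Mta2 transcript end have summits 1.375 to 1.651 kb past the end of Mta2. The Mta1 start lies lowest, with both TBX5 KO libraries left of both control libraries.

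Related genes were counted in the same way. The other NuRD subunit genes (Mbd2, Rbbp4, Rbbp7, Cdk2ap1 and Chd5) had 17 sites in both control libraries, of which 12 were in all 4 and 2 (11.8%) were control-only. The partner genes (Zfpm1, Zfpm2, Sall1, Sall4, Kdm1a, Zmynd8 and Ikzf1) had 17 of 71 control-only (23.9%), and 8 of these 17 lay at Zfpm2, which encodes a GATA cofactor. The other CHD remodellers Chd1, Chd2, Chd6, Chd7, Chd8 and Chd9 had 20 of 70 (28.6%). The Wilson interval was 3.29% to 34.3% for the other NuRD subunits, 15.5% to 35% for the partners and 19.3% to 40.1% for the CHD remodellers. No difference between lists was tested. Of 82 sites at the muscle genes Tnnt2, Actc1 and Ryr2 in both control lists, 69 (84.1%) were control-only, against 24.9% of all sites. Ryr2, the cardiac calcium release channel gene, held 77 of the 82 and 68 of the 69. Tnnt2 had 0 of 2 and Actc1 had 1 of 3 control-only. The 4 atrial cardiomyocyte markers had 7 of 20 (35%, Wilson 18.1% to 56.7%). Myl4 held 14 of the 20 and 6 of the 7. Myl7 had 1 of 4 control-only, and Nppa and Sln each had 0 of 1.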

How the data were processed

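CHD4 ChIP-seq peak lists of 4 libraries (2 TBX5 KO, 2 control) were analysed; the 4 input libraries have no list of their own here. Per the submitters' processing notes, MACS2 and DiffBind were used on build mm10, and per the series design text ChIP and input reads both entered. No aligner or caller setting is named in the labels. Each list belongs to 1 library, so replicates were not pooled. The deposited lists give each peak's fold, the authors' ratio over local background, with −log10 p and −log10 q. The deposited score equals 10 times −log10 q without decimals in at least 99.96% of peaks. These values were used only to describe or rank peaks within a list.

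Peaks were merged into sites by 1 bp overlap (Python 3.11.15, pandas 2.3.3), and assigned to RefSeq genes of GRCm38.p6 within 10 kb. Gene ends took 1 kb on either side. The gene table gives no strand, so starts were told from ends only where a promoter was listed. Shares carry Wilson intervals (statsmodels 0.14.6), which cover counting error only, and values per library a two-sided exact permutation test. Merging and assignment were tested on simulated peaks. Genes of other deacetylase complexes are not reported here. Described were all 10 genes and, for each, its leading site, gene-end, control-only and TBX5 KO-only sites and its widest site. The members, lists and tests were chosen with earlier results of these data known. Alternatives changed the flank (5 or 25 kb, or the nearest gene), the gene end (2.5 kb), the merging (summits within 250 bp, or 50% overlap of the shorter peak), the threshold (−log10 q of 3 or 5), the list length (all as short as the shortest), the libraries (each left out), the pairing by number and the direction of the groups.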

Additional observations from a re-analysis of the deposited data

How the results depend on the processing

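The covered-base ratio at members stayed below 1 under every alternative except exchanged groups, as did the width ratio of sites called in all 4 libraries. Leaving out 1 library at a time gave covered-base ratios of 0.585 to 0.672, width ratios of 0.803 to 0.883 and peak-number ratios of 0.647 to 0.724. The rank differences were -2.65 to 0.366 percentile points. Control-only shares were 37.8% to 49.4% over all member sites, against 31.3% to 40.6% of all sites. At gene ends they were 16.7% to 26.3%, against 8.86% to 15.5% over all genes. Inside the genes they were 48.5% to 62.5%, against 38.2% to 48.1%. Lists of equal length gave control-only shares of 8.11% in all, 0 of 13 at gene ends and 25% inside, a peak-number ratio of 1.13 and a rank difference of 1.54, so those results depend on list length. At −log10 q of at least 5 the shares were 16.2% in all, against 29.1% of all sites. They were 0 of 13 at gene ends, against 6.64% over all genes, and 38.5% inside, against 37.1%. With the groups exchanged the shares were 0 (0 of 32 in all, 0 of 13 at gene ends and 0 of 8 inside). The matching values were 1.91% of all sites, 0.482% at the ends of all genes and 2.43% inside them. By construction the ratios turned to 1.46 for peaks, 1.60 for covered bases and 1.24 for width and the rank difference to 1.14.

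The labels do not say whether same-numbered libraries share more than a number. Over the 38043 sites called in all 4 libraries, the percentile differences between replicates correlated with r = -0.0136 between the groups. Percentiles within a list carry no library-wide differences, so this value cannot settle whether same-numbered libraries were processed together. In the pairing by replicate number, 54.1% of member sites in pair 1 and 46.6% in pair 2 had a control peak and no TBX5 KO peak, against 53.0% and 43.0% of all sites. Inside genes the shares were 72.5% in pair 1 and 57.6% in pair 2, against 61.3% and 50.9% over all genes. The rank difference was -3.51 in pair 1 and 0.131 in pair 2. Leaving out the Mta1 domain was an alternative chosen after seeing the data. The lists hold no read counts, so depth cannot be weighed against any of these differences.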
